A study of Mus musculus with 12 samples.

Results

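Imprinted genes are expressed mainly from the copy inherited from one parent. The 41 imprinted genes described here, of 56691 mouse genes in the deposited tables, were chosen by name from known mouse imprinted domains. Of these, 14 are known to be expressed from the maternal copy and 25 from the paternal copy, and for Gnas and Grb10 the copy depends on the transcript or tissue. For some of the others, such as Ube3a in neurons and Gab1 in the placenta, imprinting is known for certain tissues. The parental classes were not measured in the cells used here. RNA of the 41 genes was counted in mouse embryonic stem cells of the line R1, which is male and of 129 background. Cells were grown for 6 days in 2i, in 2i with 25 µM of an MRE11 inhibitor, or in 2i with 50 µM of the inhibitor, and compared with primed cells, the untreated cells at day 0. All cells came from a culture in serum with LIF on gelatin. 2i combines a MEK inhibitor with a GSK3 inhibitor and moves such cells towards a naive state, and MRE11 is a nuclease that acts at DNA breaks and stalled replication forks. Each group had 3 libraries. There was no group kept for 6 days without 2i, so 2i and time in culture cannot be told apart. The labels do not name the inhibitor, and they do not say whether serum and LIF stayed in the medium with 2i.

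Imprinting rests on imprinting control regions, stretches of DNA that carry methylation on 1 parental copy from the egg or the sperm. A methylated control region decides, in a domain that often spans several genes, which copy of each gene is read, often through a long non-coding RNA or the insulator protein CTCF. In mouse embryonic stem cells the zinc-finger proteins ZFP57 and ZFP445 with TRIM28 keep these marks, DNMT1 with UHRF1 copies them at replication, and 2i culture is known for a wide loss of DNA methylation. The counts used here do not separate the parental copies, and methylation was not measured.

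Library totals lay between 5894561 and 7060126 counts, made with a kit that reads 3′ ends of polyadenylated RNA, and 13230 genes passed a low-count filter. Whether the 3 libraries of a group are separate cultures is not in the labels, and the p-values reflect library-to-library spread that may be technical. Levels are CPM, counts scaled to library size by the TMM method, and are compared between groups for a gene and not between genes. Changes are log2 fold changes ± standard error from edgeR's quasi-likelihood test, called at an adjusted p below 0.05. In every group the replicate 1 library stood apart from the other 2: the chi-square statistic per degree of freedom was 8.82 to 11.7 for pairs with replicate 1 and 2.48 to 6.64 between replicates 2 and 3. All 11 stem cell markers on a list were measured. Their summed level was 4358 to 4732 CPM in 2i and 3893 to 4245 CPM in primed cells. Over all libraries Pou5f1, the gene of OCT4, had 4.53 to 10.9 CPM and Sox2 had 508 to 627 CPM. Whether the low Pou5f1 values come from the counting step was not tested.

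Sequence just upstream of the gene starts is shown for 4 members on which the results below turn. These are Plagl1, with the largest rise in 2i, Nnat and Phlda2, with the largest falls among genes that have a window, and Meg3, the start of the maternal RNA of its domain. Each window runs from 250 bases before to 50 bases after a RefSeq gene start in GRCm38.p6, written 5′ to 3′ on the strand of the gene. Capitals mark TGCCGC or its complement GCGGCA, the letters that mouse ZFP57 reads when methylated. The Plagl1 window (chr10:13090582-13090881, plus strand), the Nnat window (chr2:157559828-157560127, plus strand), the Phlda2 window (chr7:143502475-143502774, minus strand) and the Meg3 window (chr12:109540746-109541045, plus strand) read as follows.
Plagl1: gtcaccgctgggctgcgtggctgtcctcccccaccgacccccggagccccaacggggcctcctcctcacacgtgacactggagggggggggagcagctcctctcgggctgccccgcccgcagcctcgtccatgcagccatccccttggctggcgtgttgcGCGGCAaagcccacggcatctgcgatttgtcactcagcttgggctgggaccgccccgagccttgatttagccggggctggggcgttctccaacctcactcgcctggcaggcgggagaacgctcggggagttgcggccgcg
Nnat: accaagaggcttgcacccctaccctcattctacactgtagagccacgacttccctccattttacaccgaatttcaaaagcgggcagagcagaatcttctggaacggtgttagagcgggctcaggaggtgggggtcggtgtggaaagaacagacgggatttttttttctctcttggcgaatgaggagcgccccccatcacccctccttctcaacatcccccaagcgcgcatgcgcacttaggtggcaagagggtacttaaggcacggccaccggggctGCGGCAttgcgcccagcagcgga
Phlda2: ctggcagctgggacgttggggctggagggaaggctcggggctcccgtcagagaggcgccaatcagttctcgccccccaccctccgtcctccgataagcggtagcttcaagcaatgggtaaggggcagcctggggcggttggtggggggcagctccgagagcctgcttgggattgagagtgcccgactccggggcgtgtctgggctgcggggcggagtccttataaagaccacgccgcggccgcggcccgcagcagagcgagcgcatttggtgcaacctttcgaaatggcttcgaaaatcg
Meg3: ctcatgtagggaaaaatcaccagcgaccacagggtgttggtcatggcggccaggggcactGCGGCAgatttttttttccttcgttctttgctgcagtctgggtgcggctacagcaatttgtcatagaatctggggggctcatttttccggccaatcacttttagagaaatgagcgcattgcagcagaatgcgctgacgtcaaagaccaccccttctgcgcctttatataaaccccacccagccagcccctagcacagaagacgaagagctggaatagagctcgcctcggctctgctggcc

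The motif was found 1 time each in the Plagl1, Nnat and Meg3 windows and 0 times in the Phlda2 window, which says only that those letters are not there. Plagl1 and Phlda2 each had 26 CpG sites in their windows, Nnat had 17 and Meg3 had 13, against a median of 7 over the 32851 windows of the table. RefSeq windows were matched to 33 of the 41 members, with 52 windows in all and a median of 15 CpG sites. The motif lay in 12 of these 52 windows (23.1%), against 11.6% of all windows of the same length. The overlapping Mest windows that start at 30737800 and 30737803 both count among the 12. The motif itself holds a CpG, and whether its share differs between windows of like CpG count was not tested. The 11 members that hold the motif in a window are Zdbf2, Nnat, Mest, Copg2, Zim1, Snrpn, Igf2, Plagl1, Grb10, Commd1 and Meg3. Cdkn1c, H19, Impact, Nespas, Peg10, Peg13, Rtl1 and Sgce were not matched to a window. A match describes the letters and is not a measured binding site.

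Most imprinted genes that could be measured were lower after 6 days of 2i. Of the 34 members that passed the filter, 18 fell and 4 rose in 2i against primed cells, and 12 did not pass the test. This was 22 of 34 called, in a comparison that called 40.4% of all genes, with 20.0% of all genes higher and 20.4% lower. The median change of the 34 was -0.52 on the log2 scale, against -0.01 over all genes tested. Among the falls, Magel2 and Dlk1 passed the filter only through the primed libraries, where they are high, which favours a fall. In each of the 22 called genes, the 3 libraries in 2i lay apart from the 3 primed libraries. How often this held among all called genes was not counted, so it adds no support to the calls. By known parental copy, 7 of 12 measured maternal genes fell and Cd81 rose, and 11 of 20 measured paternal genes fell and 3 rose. The summed level of all 41 genes was 1995 to 2148 CPM in 2i and 2835 to 2871 CPM in primed cells, a sum that weighs abundant genes most. Markers of other cell types were also summed. In 2i the sums were 153 to 208 CPM for 14 trophoblast markers, 15.8 to 24.6 CPM for 12 fibroblast markers and 26.7 to 59.4 CPM for 12 endoderm markers. In primed cells these sums were 293 to 501, 50.9 to 99.6 and 53.5 to 126 CPM. The trophoblast and fibroblast sums lay apart and the endoderm sums overlapped. The 10 neural markers summed to 75.9 to 97.4 CPM in 2i and to 113 to 121 CPM in primed cells. Of those measured, 4 of 8 trophoblast markers fell and 1 rose, 4 of 6 fibroblast markers and 3 of 5 neural markers fell, and none of 3 endoderm markers was called by edgeR (0 called, with 1 at an unadjusted p below 0.05; DESeq2 called 1). Without replicate 1 of every group, the median log2 change of the 3 endoderm markers was 0.25, against -0.52 with all libraries. The trophoblast markers Prl3d1 and Tpbpa, the endoderm marker Ttr and the neural marker Dcx were at 0 counts in all libraries. The part of other cell types in the falls of imprinted genes was not tested, and in bulk RNA fewer cells of a type and less RNA per cell cannot be told apart.

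**Figure D1:**
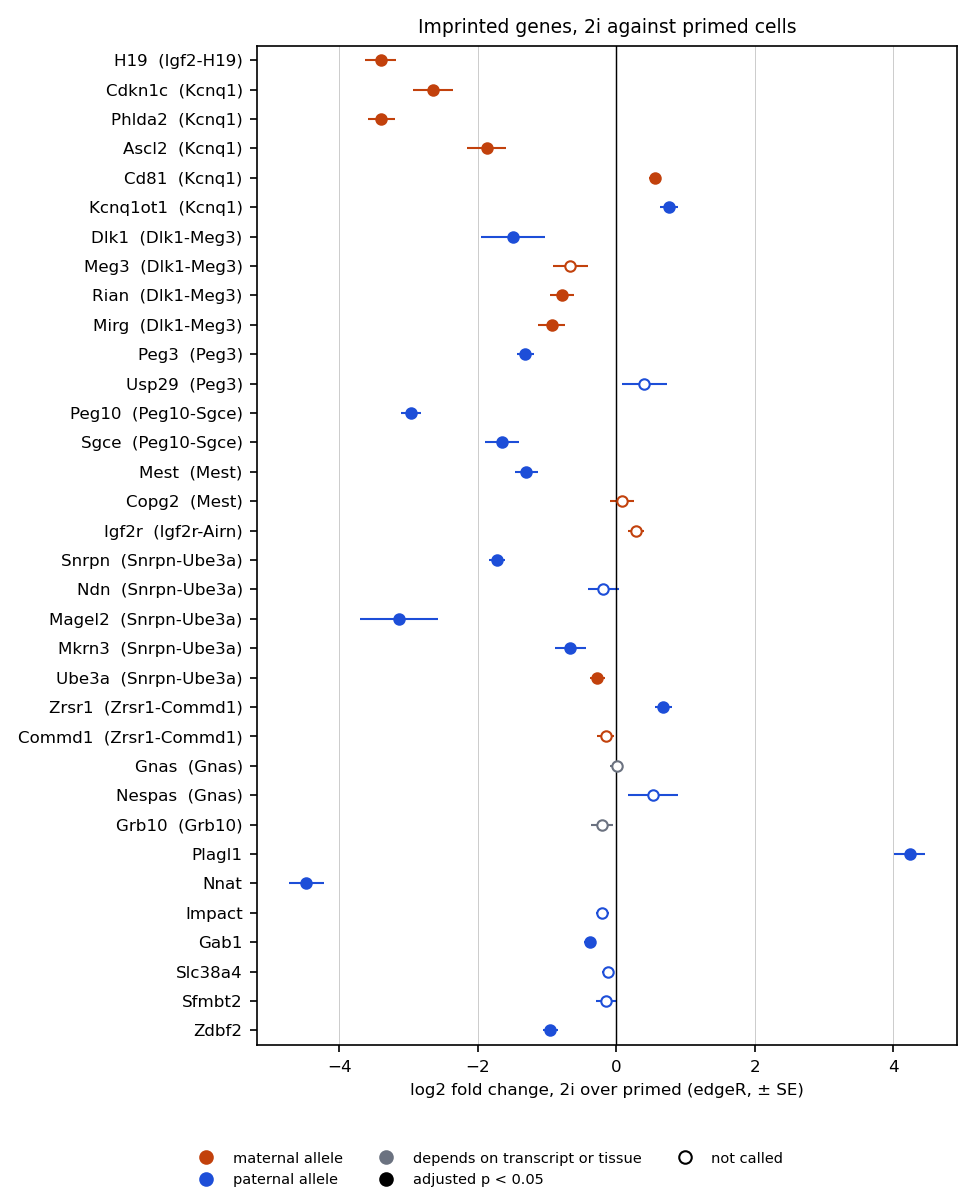
Log2 fold change of the 34 measured imprinted genes in 2i over primed cells, from edgeR with its standard error (n = 3 libraries each), ordered by domain and coloured by the parental copy known to be expressed; filled points were called. Among the filled points left of 0 are genes of both parental classes. The extremes are Nnat at -4.48 and Plagl1 at 4.24.

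On distal chromosome 7, the H19-Igf2 domain holds H19 (chr7:142575529-142578143, GRCm38), a maternally expressed long non-coding RNA, and Igf2, the paternally expressed growth factor gene. H19 had 17.4, 6.78 and 9.68 CPM in the 3 libraries in 2i, against 114, 133 and 112 CPM in primed libraries. Every 2i library was far below every primed library, and H19 fell by 3.41 on the log2 scale (SE 0.22, adjusted p = 7.94e-09), which is 10.6-fold lower. Igf2 had 0 counts in all 12 libraries, as had Gm49394, an annotated gene with which it shares exons on the same strand. Whether reads of these shared exons were left uncounted was not tested, and no change of Igf2 could be read from these tables.

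The neighbouring Kcnq1 domain split in direction. Kcnq1ot1, the paternal antisense RNA that silences this domain in cis, had 110.1, 68.9 and 90.3 CPM in 2i and 53.8, 50.6 and 54.1 CPM in primed cells. The groups did not overlap, and Kcnq1ot1 rose by 0.76 ± 0.13 (adjusted p = 5.62e-05). Among the maternally expressed genes it is known to silence, Phlda2, the gene of a pleckstrin-homology protein that limits placental growth, had 7.22, 7.07 and 5.97 CPM in 2i and 81.7, 75.5 and 56.7 CPM in primed cells. Phlda2 was 10.5-fold lower (-3.39 ± 0.20, adjusted p = 2.47e-11), with no overlap. Cdkn1c, which encodes the cell cycle inhibitor p57, had 6.14, 3.24 and 3.23 CPM in 2i and 38.2, 20.0 and 21.0 CPM in primed cells. The replicate 1 library was the highest of its group in both, yet the groups lay apart, and Cdkn1c was 6.27-fold lower (-2.65 ± 0.29, adjusted p = 9.61e-07). Ascl2, a transcription factor needed by the trophoblast, had 1.84, 2.36 and 3.23 CPM in 2i and 6.37, 10.9 and 9.97 CPM in primed cells. Like them, it fell by 1.87 on the log2 scale (SE 0.28, adjusted p = 1.42e-05). Cd81, a tetraspanin at the edge of the domain, went the other way, with 198, 227 and 215 CPM in 2i and 138, 153 and 141 CPM in primed cells. Cd81 rose by 0.56 ± 0.09 (adjusted p = 1.50e-05), with every 2i library above every primed one. Slc22a18, an organic cation transporter gene between Cdkn1c and Phlda2, was under the filter, with 2 counts summed over the 2i libraries and 27 over the primed libraries. Kcnq1, which Kcnq1ot1 overlaps on the opposite strand, had 0 counts.

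In the Dlk1-Meg3 domain on chromosome 12, members of both parental classes were lower in 2i, while Dio3, which is not among the 41 members, rose. Dio3 had 71 counts over the 2i libraries and 18 over the primed libraries. It did not pass the low-count filter through its primed libraries, which favours a rise. Meg3 (chr12:109541001-109571726, GRCm38), Rian (chr12:109603940-109661716) and Mirg (chr12:109729764-109749460) are maternal non-coding RNAs in a row on the same strand, and Rian and Mirg carry most of the small nucleolar RNAs and microRNAs of the domain. Rian had 18.9, 14.1 and 17.6 CPM in 2i and 32.5, 28.6 and 26.0 CPM in primed cells, so the groups did not overlap. Its change was -0.78 ± 0.17 (adjusted p = 0.00109). Mirg had 9.06, 11.2 and 12.1 CPM in 2i and 20.4, 17.0 and 24.5 CPM in primed cells, again without overlap, and its change was -0.94 ± 0.20 (adjusted p = 5.91e-04). For Meg3, given here although its test was not passed, the levels were 179, 213 and 284 CPM in 2i and 309, 382 and 382 CPM in primed cells. The groups did not overlap, but replicates spread widely, and its change of -0.66 ± 0.26 had an adjusted p of 0.0663. In a fit with a replicate block the Meg3 change was -0.68 ± 0.09 (adjusted p = 3.09e-06). Dlk1, the paternal gene for a membrane protein of the Notch ligand type, was scarce, at 0.921, 0.884 and 1.13 CPM in 2i and 2.80, 3.03 and 2.49 CPM in primed cells. That is 19 counts over the 2i libraries and 52 over the primed libraries, and Dlk1 fell by 1.49 on the log2 scale (SE 0.46, adjusted p = 0.0131). Dlk1 passed the low-count filter only through its primed libraries, where it is high, which favours a fall. Rtl1, a paternal gene derived from a retrotransposon, had 0 counts in all libraries.

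Retrotransposon-derived Peg10, a paternal gene needed for the placenta, showed one of the steepest falls. It had 25.2, 16.6 and 21.0 CPM in 2i and 175, 163 and 154 CPM in primed cells. Each 2i library was far below the primed range, and Peg10 was 7.84-fold lower (-2.97 ± 0.15, adjusted p = 2.39e-12). Sgce, the epsilon-sarcoglycan gene that starts beside Peg10 on the opposite strand, had 2.76, 4.57 and 4.36 CPM in 2i and 12.1, 14.1 and 10.6 CPM in primed cells. Sgce fell by 1.65 on the log2 scale (SE 0.24, adjusted p = 1.02e-05). Elsewhere on chromosome 6 the paternal gene Mest, of the alpha/beta hydrolase family, averaged 49.8 ± 1.67 CPM in 2i and 123 ± 18.9 CPM in primed cells (SD, n = 3 each). Mest was 2.46-fold lower (adjusted p = 6.26e-06). Copg2, a coatomer gene whose 3′ end overlaps that of Mest on the opposite strand, averaged 22.8 ± 4.60 CPM in 2i and 21.5 ± 1.34 CPM in primed cells and was not called. No source used here gives the strand setting of the counting, so counts of overlapping opposite genes such as these are uncertain.

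At the Peg3 domain the paternal zinc-finger gene Peg3 had 24.1, 19.3 and 24.2 CPM in 2i and 53.0, 51.9 and 63.1 CPM in primed cells. The groups lay apart, and Peg3 was 2.49-fold lower (-1.32 ± 0.13, adjusted p = 2.40e-08). Usp29, of the deubiquitinase family, which starts head to head with Peg3 and is read in the other direction, was not called, with 5.07, 8.69 and 8.39 CPM in 2i and 8.55, 4.20 and 3.89 CPM in primed cells. Its primed replicate 1 lay among the 2i values. Maternal Zim1, a zinc-finger gene beside Peg3, was under the filter, with 13 counts summed over the 2i libraries and 14 over the primed libraries.

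Paternal members of the Snrpn domain, the mouse counterpart of the Prader-Willi region, differed in size of change. Peg12, a gene of this domain that is not among the 41 members, rose by 1.15 ± 0.27 (adjusted p = 0.00168). Snrpn, which encodes a spliceosomal protein, had 71.7, 81.3 and 87.6 CPM in 2i and 255, 286 and 253 CPM in primed cells. The groups were far apart, and Snrpn was 3.30-fold lower (-1.72 ± 0.11, adjusted p = 3.39e-11). Magel2, of the MAGE family, had 0.307, 0 and 0.645 CPM in 2i and 2.95, 2.52 and 3.12 CPM in primed cells. These levels rest on 6 counts in 2i and 54 in primed libraries, and Magel2 fell by 3.14 on the log2 scale (SE 0.56, adjusted p = 1.00e-04). The change was -2.54 without 2i replicate 2 and -4.08 without 2i replicate 3. Magel2 passed the low-count filter only through its primed libraries, where it is high, which favours a fall. Mkrn3, a RING-finger gene, averaged 6.58 ± 0.900 CPM in 2i and 10.4 ± 1.86 CPM in primed cells (SD, n = 3 each). Mkrn3 was called lower by 0.67 on the log2 scale (adjusted p = 0.0206), a call lost without primed replicate 1, 2i replicate 1 or 2i replicate 2. Ndn, which encodes necdin, averaged 14.0 ± 0.829 CPM in 2i and 15.9 ± 3.72 CPM in primed cells and was not called. The maternal gene of the domain is Ube3a, a ubiquitin ligase gene imprinted in neurons. Ube3a averaged 172 ± 20.6 CPM in 2i and 208 ± 16.5 CPM in primed cells, and its small fall of 0.27 on the log2 scale (adjusted p = 0.0428) was lost without any 1 library except 2i replicate 1. Snrpn shares exons with Snurf and with Gm38393, which had 0 and 174 counts, and Ube3a is overlapped by the opposite RNA Snhg14.

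Lone imprinted genes held both ends of the range. Plagl1, a paternal zinc-finger transcription factor gene that restrains the cell cycle, had 73.4, 96.5 and 114 CPM in 2i and 4.51, 4.54 and 5.92 CPM in primed cells. Every 2i library was above every primed library, and Plagl1 was 18.8-fold higher (4.24 ± 0.23, adjusted p = 4.52e-10). Nnat, which encodes neuronatin, a small membrane protein of the endoplasmic reticulum, had 1.23, 1.18 and 1.94 CPM in 2i and 37.3, 31.6 and 28.5 CPM in primed cells. Nnat was 22.3-fold lower (-4.48 ± 0.25, adjusted p = 4.76e-12). Zdbf2, a paternal zinc-finger gene, averaged 45.0 ± 1.77 CPM in 2i and 87.0 ± 4.87 CPM in primed cells, a change of -0.95 ± 0.11 (adjusted p = 4.48e-07). Gab1, a docking protein gene imprinted in the placenta, fell by 0.38 on the log2 scale (SE 0.08, adjusted p = 6.38e-04), to 221 ± 8.18 CPM in 2i against 287 ± 12.4 CPM in primed cells. Zrsr1, a paternal splicing factor gene inside an intron of Commd1, rose by 0.68 ± 0.12 (adjusted p = 1.09e-04), with 67.2 ± 7.79 CPM in 2i and 41.8 ± 8.32 CPM in primed cells. Its host Commd1, which acts in copper and NF-κB control, was not called. These 2 genes share exonic sequence on opposite strands, so their counts are uncertain.

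**Figure D2:**
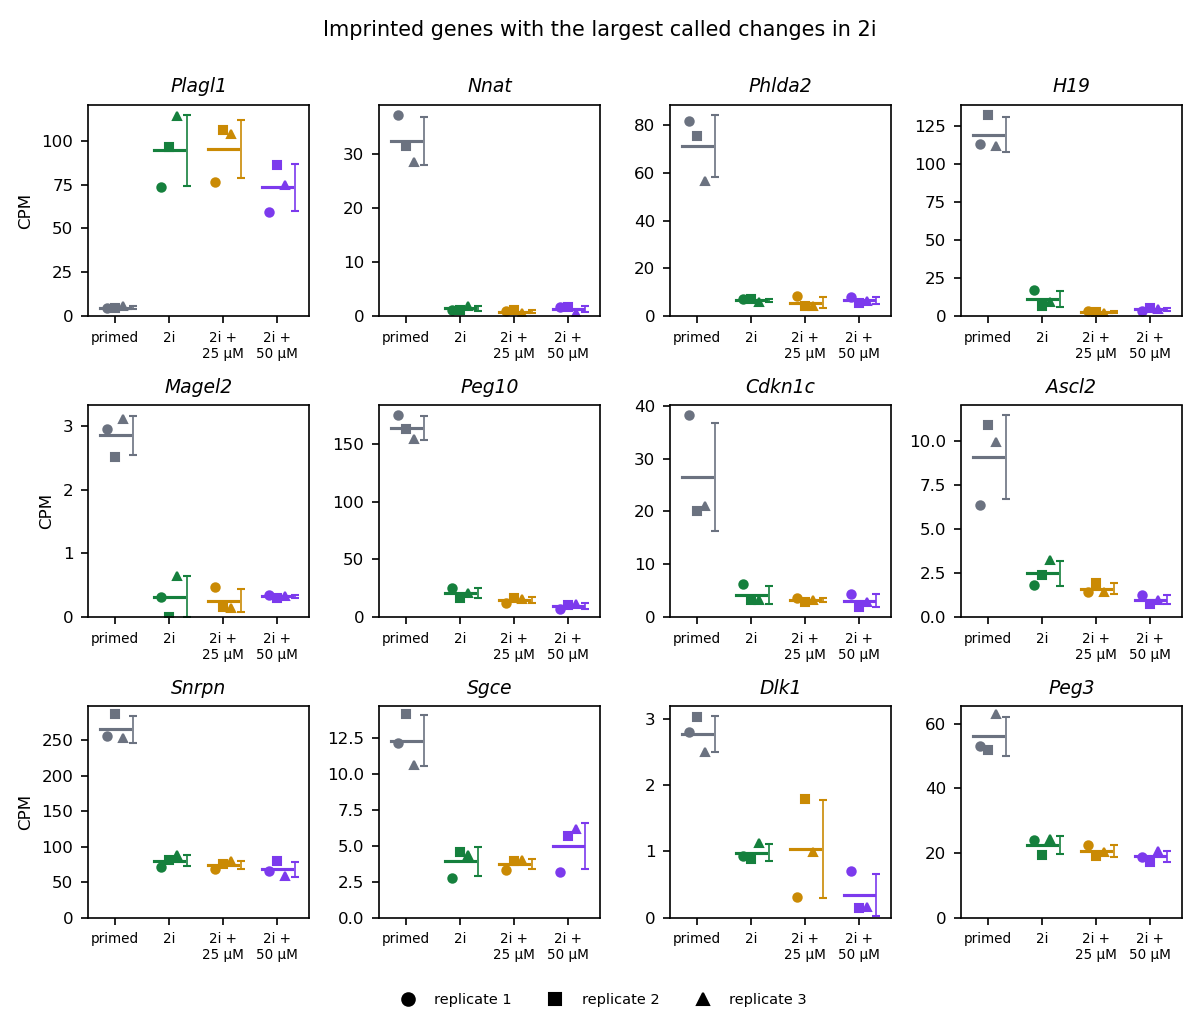
Levels in CPM of the 12 imprinted genes with the largest called changes between 2i and primed cells, in each library of the 4 groups. Symbols mark replicate numbers, long bars the group means and capped bars the SD (n = 3); 11 genes drop between primed and 2i and stay low with the inhibitor, while Plagl1 stands at 73.4 CPM or more in 2i libraries and at 5.92 CPM or less in primed ones.

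The remaining 7 measured imprinted genes did not pass the test in 2i against primed cells. Igf2r, the maternal receptor gene that clears IGF2, averaged 82.9 ± 8.69 CPM in 2i and 68.1 ± 11.0 CPM in primed cells, with an adjusted p of 0.0621. Gnas, which encodes the stimulatory G protein subunit and gives rise to several imprinted transcripts, averaged 211 ± 11.0 CPM in 2i and 210.3 ± 32.4 CPM in primed cells, and the 95% interval of its log2 change ran from -0.19 to 0.19. Its antisense partner Nespas, with which it shares exonic sequence, was not called either. Grb10, an adaptor that restrains growth signalling, had an interval of -0.52 to 0.10, and Slc38a4, an amino acid transporter gene, one of -0.30 to 0.05. The interval was -0.43 to 0.13 for Sfmbt2, a Polycomb gene, and -0.39 to -0.02 for Impact, which restrains the kinase GCN2. Together with Meg3, Ndn, Commd1 and Copg2, these 7 genes are the 11 measured members that edgeR with all 12 libraries, TMM scaling and no replicate block called in none of the comparisons. With the block, Igf2r was called higher in 2i than in primed cells (0.29 ± 0.09, adjusted p = 0.00517). Impact was called lower there with the block (-0.20 ± 0.08, adjusted p = 0.041), as was Meg3. Blocked values of these 3 genes against 2i alone are given with the inhibitor. A missed test does not show that such genes were the same in both groups.

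Another 7 members were below the low-count filter and entered no test. Igf2, Rtl1 and Rasgrf1, a guanine nucleotide exchange factor gene, had 0 counts in all 12 libraries, which, apart from the shared exons of Igf2, allows up to 3 counts over a group, or 0.153 to 0.162 CPM, by counting error alone. Airn, the paternal antisense RNA that silences Igf2r, had 28 counts over the 2i libraries, 18 with 25 µM and 14 with 50 µM inhibitor, and 22 over the primed libraries. Peg13, a paternal non-coding RNA, had 10 counts over the 2i libraries, 13 with 25 µM and 6 with 50 µM inhibitor, and 11 over the primed libraries. Slc22a18 and Zim1 were described with their domains, and with inhibitor they had 1 and 15 counts at 25 µM and 5 and 11 counts at 50 µM.

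In 2i with 25 µM inhibitor, 2 imprinted genes were called against 2i alone, of 34 measured, where 0.937% of all genes were called. H19 had 3.61, 3.09 and 2.13 CPM with 25 µM inhibitor and 17.4, 6.78 and 9.68 CPM in 2i alone. Already low in 2i, H19 fell further by 1.94 on the log2 scale (SE 0.33, adjusted p = 0.0134), and the groups did not overlap. The call was lost without 25 µM replicate 2 or replicate 3, with a highest adjusted p of 0.0826. Rian had 24.3, 24.2 and 37.5 CPM with 25 µM inhibitor and 18.9, 14.1 and 17.6 CPM in 2i alone. Rian rose by 0.77 ± 0.17 (adjusted p = 0.0401), again without overlap, and this call was lost without 2i replicate 2, 2i replicate 3 or 25 µM replicate 3, with a highest adjusted p of 0.211. Replicates with the same number deviated together in all 3 comparisons with the inhibitor, and a fit with a replicate block also called Meg3 at 25 µM (blocked change 0.35 ± 0.09, adjusted p = 0.0349), for 3 members where it called 4.74% of all genes. The median change of the 34 genes was -0.07, against 0.00 over all genes.

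With 50 µM inhibitor, Rian and Mirg, maternal RNAs of the Dlk1-Meg3 domain that were lower in 2i, rose against 2i alone. Of 34 measured genes, 4 rose and 6 fell against 2i alone, and 24 did not pass the test. The 10 calls compare with 15.1% of all genes called, 7.01% higher and 8.07% lower. The median change was -0.07, against 0.01 over all genes. With the replicate block the count was 16, where 24.5% of all genes were called. Both doses were set against the same 3 libraries in 2i alone, so the comparisons are not independent. Without replicate 1 of every group, chosen for leaving out after the data were seen, 14 members were called at 50 µM (13.3% of all genes), 2 at 25 µM (1.05%) and 23 in 2i against primed cells (38.0%).

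Rian was the most changed of these RNAs. It had 18.9, 14.1 and 17.6 CPM in 2i alone, 24.3, 24.2 and 37.5 CPM with 25 µM and 43.2, 57.1 and 53.6 CPM with 50 µM inhibitor. The 50 µM libraries lay above all others of the series, including the primed libraries, and Rian was 3.05-fold higher than in 2i alone (1.61 ± 0.17, adjusted p = 3.27e-06). With all 12 libraries, TMM scaling and no replicate block, Rian was also the only member called between the doses, higher at 50 than at 25 µM by 0.83 ± 0.16 (adjusted p = 0.0103), where 1.16% of all genes were called. That call was lost without 25 µM replicate 2, 50 µM replicate 2 or 50 µM replicate 3, with a highest adjusted p of 0.0829. Mirg, the microRNA host, had 15.2, 24.9 and 24.4 CPM with 50 µM and 9.06, 11.2 and 12.1 CPM in 2i alone. Its groups did not overlap, and Mirg was 2.00-fold higher (1.00 ± 0.20, adjusted p = 0.00154). At 25 µM it had 11.1, 14.6 and 15.2 CPM. Between the doses Mirg differed by 0.66 ± 0.19 with an adjusted p of 0.109 without the replicate block and 0.00712 with it. Meg3, first in the row, had 179, 213 and 284 CPM in 2i alone, 206, 308 and 354 CPM with 25 µM and 279, 471 and 442 CPM with 50 µM inhibitor. Replicate 1 was the lowest Meg3 value in each of these groups, and the 50 µM and 2i libraries overlapped. The change of Meg3 at 50 µM was 0.82 ± 0.26, with an adjusted p of 0.0617 without the replicate block and 1.89e-06 with it. Between the doses the change was 0.46 ± 0.26, with an adjusted p of 0.543 without the block and 0.00452 with it. Dlk1, the paternal gene of the domain, was not called at either dose, with 19 counts over the libraries in 2i alone, 20 over the 25 µM libraries and 6 over the 50 µM libraries. The trophoblast, fibroblast and endoderm marker sums were 153 to 208, 15.8 to 24.6 and 26.7 to 59.4 CPM in 2i alone, 138 to 177, 10.4 to 12.2 and 15.9 to 19.6 CPM with 25 µM, and 96.6 to 136, 7.46 to 9.71 and 12.2 to 16.8 CPM with 50 µM inhibitor. The neural sums overlapped, at 75.9 to 97.4 CPM in 2i alone, 90.2 to 90.9 CPM with 25 µM and 85.3 to 107 CPM with 50 µM inhibitor. The part of these cell types in these changes was not tested.

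**Figure D3:**
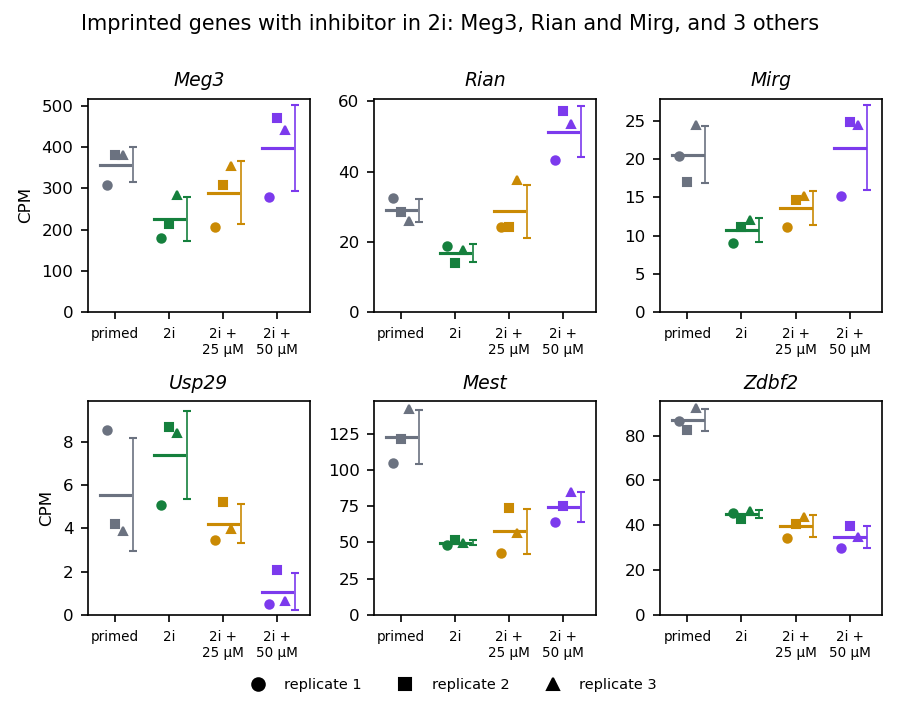
Levels in CPM of Meg3, Rian, Mirg, Usp29, Mest and Zdbf2 in each library of the 4 groups. Symbols mark replicate numbers, long bars the group means and capped bars the SD (n = 3); Rian reaches 43.2 to 57.1 CPM with 50 µM inhibitor, above its primed libraries, and Usp29 stays at 2.09 CPM or less.

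The other 2 genes that rose with 50 µM inhibitor were Mest and Cd81. Mest averaged 49.8 ± 1.67 CPM in 2i alone, 57.7 ± 15.6 CPM with 25 µM and 74.7 ± 10.3 CPM with 50 µM inhibitor (SD, n = 3 each). Its rise at 50 µM was 0.59 ± 0.16 (adjusted p = 0.0243), a call lost without any 1 library except 50 µM replicate 1, while with the replicate block Mest was called between the doses too (adjusted p = 0.0396). Cd81, already higher in 2i, had 265, 249 and 250.0 CPM with 50 µM inhibitor and 198, 227 and 215 CPM in 2i alone. Its libraries did not overlap, but the rise of 0.26 ± 0.08 (adjusted p = 0.0444) was lost without any 1 of the 6 libraries, with adjusted p from 0.0547 to 0.245. Kcnq1ot1 had 105, 119 and 118 CPM with 50 µM inhibitor and 110.1, 68.9 and 90.3 CPM in 2i alone, and its change of 0.35 ± 0.12 had an adjusted p of 0.0609 without the replicate block and 0.0159 with it.

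Usp29 showed the largest fall among imprinted genes with 50 µM inhibitor. It had 5.07, 8.69 and 8.39 CPM in 2i alone, 3.45, 5.21 and 3.98 CPM with 25 µM and 0.529, 2.09 and 0.648 CPM with 50 µM inhibitor. All 50 µM libraries were below all libraries of the other groups, and Usp29 was 6.47-fold lower than in 2i alone (-2.69 ± 0.43, adjusted p = 2.90e-04). Without 50 µM replicate 2 the change was -3.59. At 25 µM the change was -0.81 ± 0.34 (adjusted p = 0.304), and between the doses it was -1.88 ± 0.46, with an adjusted p of 0.0507 without the replicate block and 0.019 with it. Its neighbour Peg3, which Usp29 faces head to head, averaged 18.9 ± 1.78 CPM with 50 µM inhibitor and 22.5 ± 2.80 CPM in 2i alone and was not called, with a 95% interval of its log2 change of -0.52 to 0.02. The difference between these neighbours was not tested.

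Peg10, H19 and Ascl2, which were lower in 2i than in primed cells, were lower still with 50 µM inhibitor. Peg10 had 6.52, 10.6 and 10.8 CPM with 50 µM inhibitor and 25.2, 16.6 and 21.0 CPM in 2i alone. No 50 µM library reached the 2i range, and the change was -1.15 ± 0.18 (adjusted p = 2.64e-04). H19 had 3.35, 5.37 and 4.86 CPM with 50 µM inhibitor and 17.4, 6.78 and 9.68 CPM in 2i alone, a change of -1.30 ± 0.31 (adjusted p = 0.0112). Replicate 1 was the highest H19 library in 2i alone, and without replicate 1 of every group the change was -0.70 (adjusted p = 0.0544). The H19 levels at 50 µM overlapped those at 25 µM, and between the doses it was not called (adjusted p = 0.572). Ascl2 had 1.23, 0.746 and 0.971 CPM with 50 µM inhibitor and 1.84, 2.36 and 3.23 CPM in 2i alone. The groups did not overlap, but the fall of 1.33 on the log2 scale (SE 0.40, adjusted p = 0.0292) rests on few counts and was lost without replicate 2 or 3 of either group. Phlda2 and Cdkn1c, in the same domain, averaged 6.65 ± 1.38 and 3.09 ± 1.24 CPM with 50 µM inhibitor against 6.75 ± 0.683 and 4.20 ± 1.68 CPM in 2i alone (SD, n = 3 each) and were not called.

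Zdbf2 and Zrsr1 completed the 6 falls. Zdbf2 averaged 34.9 ± 4.93 CPM with 50 µM inhibitor and 45.0 ± 1.77 CPM in 2i alone, a change of -0.36 ± 0.12 (adjusted p = 0.0406). Zrsr1 averaged 50.9 ± 1.67 CPM with 50 µM inhibitor and 67.2 ± 7.79 CPM in 2i alone, a change of -0.40 ± 0.12 (adjusted p = 0.029) opposite to its rise in 2i. For each of these genes the call was lost in 5 of 6 fits without 1 library: Zdbf2 kept it only without 50 µM replicate 2, and Zrsr1 only without 2i replicate 2. Plagl1, the gene that had risen most in 2i, had 73.4, 96.5 and 114 CPM in 2i alone, 76.4, 106 and 104 CPM with 25 µM and 59.4, 86.1 and 74.8 CPM with 50 µM inhibitor. It remained far above its primed level of 4.99 ± 0.807 CPM, and its change at 50 µM of -0.36 ± 0.16 had an adjusted p of 0.156 without the replicate block and 0.00224 with it. The block also called Igf2r (-0.30 ± 0.09, adjusted p = 0.00934) and Snrpn (-0.24 ± 0.09, adjusted p = 0.0459) lower and Impact (0.23 ± 0.08, adjusted p = 0.0366) higher at 50 µM, and Plagl1 lower at 50 than at 25 µM (adjusted p = 0.00682). With the block, 6 members were called between the doses, where 4.1% of all genes were called. Nnat and Magel2 stayed low at both doses, with 1.35 ± 0.611 and 0.325 ± 0.0271 CPM at 50 µM against 1.45 ± 0.424 and 0.317 ± 0.323 CPM in 2i alone (SD, n = 3 each), and were not called.

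Set side by side, the calls in 2i and at 50 µM fell into a few patterns. Mest, Mirg and Rian were lower in 2i and then higher with 50 µM inhibitor. Ascl2, H19, Peg10 and Zdbf2 were lower in both comparisons, Cd81 was higher in both, Zrsr1 was higher and then lower, and Usp29 was called lower at 50 µM and was not called in 2i. The 2 comparisons share the 2i libraries, with opposite sign, so these patterns carry no test.

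**Figure D4:**
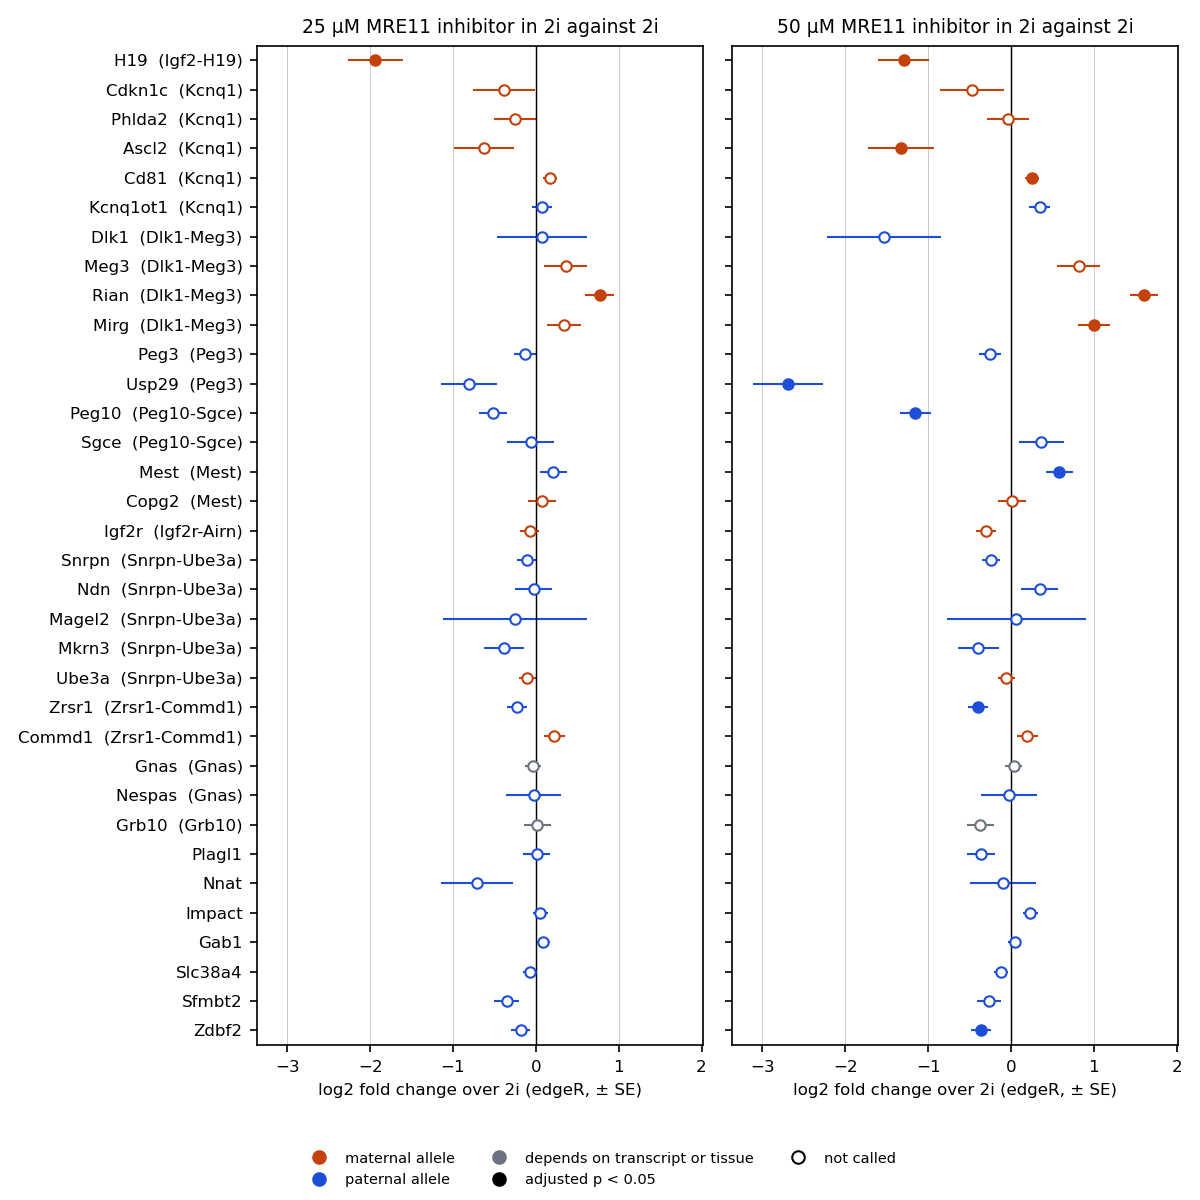
Log2 fold change of the 34 measured imprinted genes over 2i alone with 25 µM (left panel) and 50 µM (right panel) MRE11 inhibitor, from edgeR with its standard error (n = 3 libraries each), ordered by domain; filled points were called. Rian, Mirg and Meg3 lie right of 0 in both panels, and H19, Usp29, Peg10 and Ascl2 lie left of 0 in both.

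Genes that write, copy or protect imprints were followed on a separate list of 28, of which 27 were measured. In 2i, 4 rose and 8 fell against primed cells, where 20.0% of all genes were called higher and 20.4% lower. The genes of new DNA methylation were among those that fell. Dnmt3a had 29.2, 34.3 and 36.9 CPM in 2i and 179.8, 145 and 142 CPM in primed cells, a change of -2.22 ± 0.13 (adjusted p = 1.01e-11). Dnmt3b changed by -2.10 ± 0.11 (adjusted p = 1.49e-12) and Dnmt3l, a cofactor without its own activity, by -2.13 ± 0.12 (adjusted p = 2.80e-11). In none of the 3 did the groups overlap. Tet2, an enzyme of methylation removal, rose by 0.89 ± 0.12 (adjusted p = 3.46e-06), Setdb1, a histone methyltransferase recruited by TRIM28, by 0.66 ± 0.10 (adjusted p = 8.36e-06) and the Polycomb gene Suz12 by 0.66 ± 0.17 (adjusted p = 0.00828). Uhrf1 rose by 0.31 ± 0.09 (adjusted p = 0.00912). Ehmt2 and Ehmt1, genes of histone H3 lysine 9 methylation, Naa10, an acetyltransferase gene, Tet1 and Dppa3 were the other 5 that fell, with log2 changes of -0.68, -0.40, -0.44, -0.54 and -0.57. The calls of Tet1 and Dppa3 were each lost in 4 of 6 fits without 1 library. The imprint-protecting genes Zfp57, Zfp445 and Trim28 were not called. Zfp57 averaged 55.8 ± 14.3 CPM in 2i and 42.0 ± 2.16 CPM in primed cells (SD, n = 3 each), and the 95% interval of its log2 change was -0.12 to 0.93.

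Uhrf1, of methylation maintenance, rose at both doses of the inhibitor. Uhrf1 had 135, 141 and 128 CPM in 2i alone, 202, 199.8 and 176 CPM with 25 µM and 225, 207 and 183 CPM with 50 µM inhibitor. Neither dose overlapped 2i alone, and Uhrf1 rose by 0.52 ± 0.09 at 25 µM (adjusted p = 0.0066) and by 0.61 ± 0.09 at 50 µM (adjusted p = 1.13e-04). With all 12 libraries and no replicate block it was the only gene of the 27 called at 25 µM by edgeR, where 0.937% of all genes were called, and that call was lost without 2i replicate 3 (adjusted p = 0.0584). At 50 µM, Dnmt1, whose product copies methylation at replication, rose by 0.31 ± 0.10 (adjusted p = 0.0423) and Eed, of Polycomb, by 0.34 ± 0.10 (adjusted p = 0.0211). The Dnmt1 call was lost without 2i replicate 1, 2i replicate 2, 50 µM replicate 1 or 50 µM replicate 3, and the Eed call without 2i replicate 2, 2i replicate 3 or 50 µM replicate 1. Dppa3, whose product keeps UHRF1 from DNA and shields imprints in the zygote, had 102, 147 and 122 CPM in 2i alone, 72.0, 98.9 and 91.2 CPM with 25 µM and 24.7, 43.1 and 47.6 CPM with 50 µM inhibitor. The 50 µM libraries were below all others of the series, and Dppa3 was 3.20-fold lower than in 2i alone (-1.68 ± 0.22, adjusted p = 5.82e-04) and lower at 50 than at 25 µM with a log2 change of -1.18 (adjusted p = 0.034). The call between the doses was lost without 25 µM replicate 2, 25 µM replicate 3 or 50 µM replicate 2. With the replicate block Dppa3 was called at 25 µM as well (-0.50 ± 0.09, adjusted p = 4.07e-04). Dnmt3a was called lower at 50 µM (-0.42 ± 0.14, adjusted p = 0.0489), although its libraries overlapped those of 2i alone and the call was lost in 4 of 6 fits without 1 library. In all, 3 genes of the list rose and 2 fell at 50 µM, where 15.1% of all genes were called. With the replicate block 10 were called at 50 µM, where it called 24.5% of all genes, and 3 at 25 µM, where it called 4.74%. Those added at 50 µM were Tet1, Ehmt2 and Cbx5, higher, and Suz12 and Atrx, lower. Suz12, which had risen in 2i, changed by -0.27 ± 0.06 (blocked adjusted p = 0.00207) at 50 µM. At 25 µM it changed by -0.26 ± 0.06 (blocked adjusted p = 0.013). No relation between these genes and the imprinted genes was tested.

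**Figure D5:**
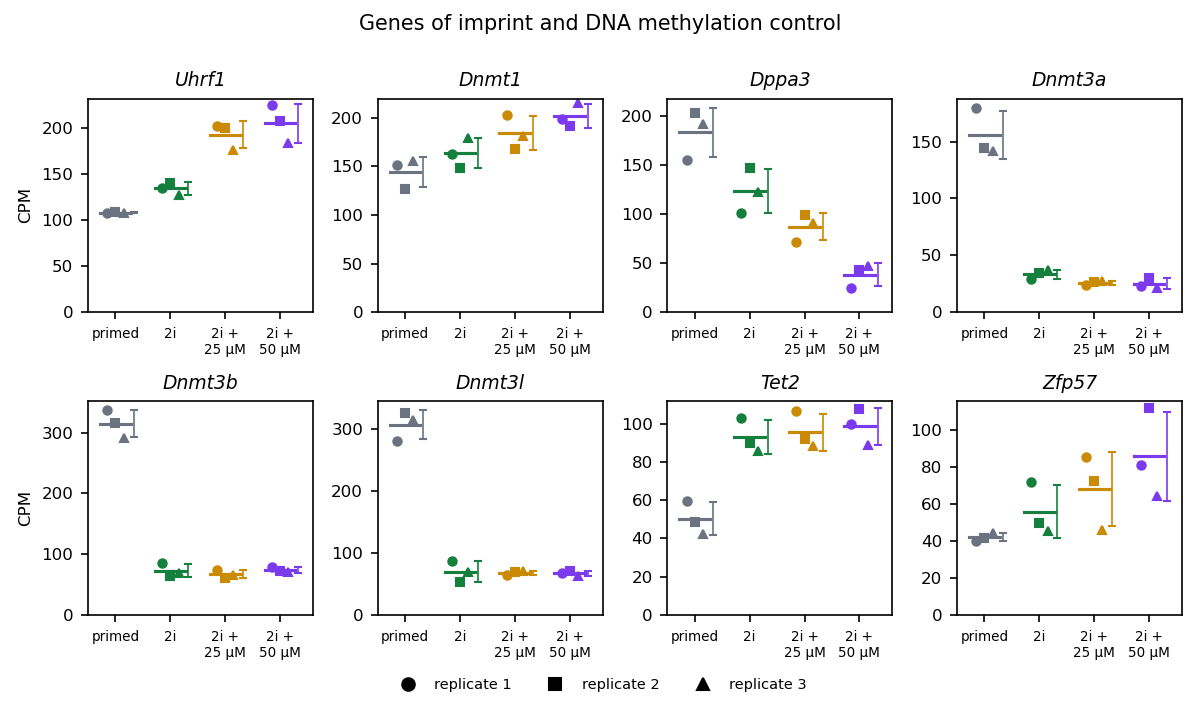
Levels in CPM of 8 genes of imprint and DNA methylation control in each library of the 4 groups. Symbols mark replicate numbers, long bars the group means and capped bars the SD (n = 3); Dnmt3a, Dnmt3b and Dnmt3l are low in all 9 libraries with 2i, Uhrf1 is highest with the inhibitor and Dppa3 lowest with 50 µM inhibitor.

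Other genes in or beside the same domains, on a list of 34 of which 18 were measured, moved both ways. In 2i, 5 rose and 5 fell against primed cells, beside 20.0% of all genes higher and 20.4% lower. Atp10a, a lipid flippase gene of the Snrpn domain, and Osbpl5, an oxysterol-binding protein gene of the Kcnq1 domain, fell most, with changes of -3.96 ± 0.48 (adjusted p = 7.50e-07) and -2.62 ± 0.41 (adjusted p = 1.91e-05). Without 2i replicate 3 the Atp10a change was -4.59. Atp10a and Osbpl5 passed the low-count filter only through their primed libraries, where they are high, which favours a fall. Cobl, an actin regulator gene beside Grb10, and Dio3, a thyroid hormone deiodinase gene of the Dlk1-Meg3 domain, rose most, with changes of 2.06 ± 0.10 (adjusted p = 1.24e-12) and 1.90 ± 0.41 (adjusted p = 7.03e-04). Dio3 rests on 18 counts over the primed libraries and 71 over the 2i libraries. It passed the low-count filter through its libraries in 2i alone and with 25 µM inhibitor, where it is high. That favours a rise in 2i and a fall at 50 µM. At 25 µM edgeR called 0 of the 18, with 1 higher and 1 lower at an unadjusted p below 0.05; DESeq2 also called 0, and edgeR with the replicate block called Ddc (adjusted p = 0.0308). At 50 µM, Chrac1 rose by 0.55 ± 0.17 (adjusted p = 0.0312), and Osbpl5 and Dio3 fell. With the replicate block 5 genes were called there (24.5% of all genes), against 3 without it (15.1%), Trappc9 being added as higher and Blcap as lower. Between the doses the block called Dio3 (adjusted p = 0.011) and Ddc (adjusted p = 0.00919) lower, where 4.1% of all genes were called. The Chrac1 call was lost without any 1 library except 50 µM replicate 2, and the Osbpl5 call, which rests on a mean of 0.0497 ± 0.0861 CPM with 50 µM inhibitor and 0.667 ± 0.0913 CPM in 2i alone, without 50 µM replicate 1 or 3. The Osbpl5 change at 50 µM was -3.22 ± 0.90, and -5.12 without 50 µM replicate 2. Dio3 had 1.76, 1.49 and 0.809 CPM with 50 µM inhibitor and 4.30, 3.83 and 2.74 CPM in 2i alone, a change of -1.42 ± 0.39 (adjusted p = 0.0163) opposite in sign to that of Rian and Mirg in the same domain; the call was lost without 2i replicate 2 or 50 µM replicate 3 (highest adjusted p = 0.0706).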

How the data were processed

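Poly(A) RNA 3′ ends were sequenced from 12 libraries, 3 per group, with QuantSeq, per the labels' protocols. The authors deposited raw counts per gene, 1 table per library; the submitters' processing notes name STAR, FastQC, DESeq2 1.32.0 and GRCm38. The counting tool, its strand setting, the annotation and any molecular identifiers were not given in the sources used here. Each table held 56805 features, of which 114 spike-in features with 2 counts in all were left out. Symbols, positions and overlaps came from the GRCm38 annotation. Counts were tested in R 4.3.3 with edgeR 4.0.16 (quasi-likelihood F test, TMM, filterByExpr, robust, all 12 libraries in 1 fit, Benjamini-Hochberg adjustment over 13230 genes). The SE is the change divided by the square root of F. CPM use TMM-scaled totals of the tested genes. Alternatives were DESeq2 1.42.0 or RLE size factors, library totals, no filter, a replicate block, the 2 groups alone, and each library left out.

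Replicate numbers come from the labels. Same-numbered libraries deviated together in the comparisons with the inhibitor (correlations 0.155 to 0.314 at 25 µM, 0.115 to 0.249 at 50 µM and 0.134 to 0.286 between doses), so for imprinted genes blocked values stand beside results they change. For the other lists blocked results are given in part. The test was checked on simulated data. All 41 genes are accounted for; values in every library are given for up to 12 called genes of largest change in 2i, up to 6 per inhibitor comparison and for genes called in opposite directions within a domain. Meg3 and Plagl1 with the inhibitor and Dio3 at 50 µM were added after their values were seen. Members and lists were chosen with earlier results of these data known. Intervals and floors cover counting error or library spread only.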

Additional observations from a re-analysis of the deposited data

How the results depend on the processing

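No called change of an imprinted gene took the other sign under any alternative run. In 2i against primed cells, 419 values of single imprinted genes stayed called in the same direction or stayed uncalled, 13 gained a call and 10 lost one. The same counts were 430, 2 and 7 at 25 µM, 382, 24 and 34 at 50 µM, and 414, 19 and 3 between the doses. The direction of changes that stayed uncalled was not compared. Fits without 1 library called 20 to 23 imprinted and 10 to 13 control genes in 2i against primed cells, 0 to 2 and 0 to 1 at 25 µM, 5 to 9 and 2 to 5 at 50 µM, and 0 to 2 and 0 to 1 between the doses. At 25 µM, 1 imprinted gene was called with library totals only and 1 with the 2 groups only, and control genes numbered 3 with the replicate block and 2 without replicate 1 of all groups. At 50 µM the replicate block called 16 imprinted and 10 control genes. Between the doses, imprinted genes called numbered 2 with RLE factors, 2 with library totals, 5 without the low-count filter, 6 with the replicate block, 2 with the 2 groups only, 4 without replicate 1 of all groups and 2 with DESeq2, and the block called 2 control genes. In 2i against primed cells same-numbered libraries correlated at 0.0908 to 0.244 and each correlated best with its own number, but not every pair passed 0.1, so a pairing is a hint from the data; the replicate block called 25 imprinted genes there, Meg3, Igf2r and Impact among them, and 16 control genes against 12 without it, Zfp445 among them (adjusted p = 0.0494). The share of all genes called was not counted for the block in 2i against primed cells, for the fits without 1 library and for most other settings. At 50 µM the block raised the share over all genes too, from 15.1% to 24.5%. More calls under a setting are therefore no result about these lists. For gains and losses between settings the cause was not tested. At this depth, genes such as Dlk1, Magel2, Usp29 and Ascl2 rest on few counts, and 7 of 41 members could not be tested.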
